A study of Mus musculus with 9 samples.

Results

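The genes described here make cholesterol, fatty acids and the sphingolipids of myelin. They are 38 genes chosen by symbol from the 34745 in the deposited table: 18 enzymes of sterol synthesis, 5 genes of sterol control and transport, 11 of fatty acid synthesis, elongation and desaturation, and 4 of myelin sphingolipid synthesis. The choice went by name and role, not by a threshold on measured values, and all 38 passed the filter on low counts that left 16494 genes for testing. It was made with earlier results of these data known.

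Messenger RNA was selected by poly-A from mouse spinal cord and sequenced. The injury was a complete cut through the cord at T9. There were 3 groups of 3 libraries: day 0, day 3 and day 21 after injury. Titles give the day of the later groups, and the group titled N, which the labels do not explain, was taken as day 0 because the design names that day. Whether the cords of that group had been cut or operated on is therefore not known here. The labels give no strain, age, sex or genotype, and do not say how much cord was taken or how far from the lesion. No group was labelled as sham, so injury and surgery cannot be told apart. Whether each library is a separate animal is not stated in the labels, and the p-values therefore cover only the scatter among these libraries, which may be technical.

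Cholesterol is made from acetyl-CoA through the mevalonate pathway, which leads to squalene, and then through ring closure to lanosterol and its trimming to cholesterol. The nervous system makes its own cholesterol behind the blood-brain barrier, and oligodendrocytes place much of it, with saturated and very long-chain fatty acids and galactosylceramide, in myelin. Transcription factors of the SREBP family turn on the sterol and fatty acid enzymes when sterol in the endoplasmic reticulum is low, and INSIG proteins hold these factors back when it is high.

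SREBP proteins commonly act with the factor NF-Y, whose binding motif is CCAAT, so the stretch of 250 bases before the RefSeq transcript start was searched for CCAAT on both strands. A promoter entry was matched for 30 of the 38 genes; Stard4, Fdps, Scd1, Fa2h, Fads1, Fdft1, Sqle and Scd2 were not matched. CCAAT was present before 14 of 15 sterol enzyme genes (93.3%), 3 of 8 fatty acid genes (37.5%) and 2 of 3 sphingolipid genes (66.7%), and before 10133 of all 27025 genes with an entry (37.5%). The sterol regulatory motif TCACNCCA, also read on both strands, was present before 3 of the 30, Hmgcs1, Msmo1 and Srebf2, and before 4.2% of all genes. The E-box CACGTG, a palindrome bound by helix-loop-helix factors, was present before 7 of the 30 (23.3%) and 6.86% of all genes; matches of different motifs were counted separately and may overlap. A match describes the letters of a stretch, and binding was not measured.

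CCAAT was also present before Pmvk, Lss, Tm7sf2, Ebp, Elovl1 and Gal3st1, whose change from day 0 passed the test described below at neither day. Without day 21 replicate 2, a library that stood apart, Pmvk, Tm7sf2, Ebp and Gal3st1 were lower at day 21 (log2 -0.77, -0.62, -0.63 and -0.44). Their edgeR adjusted p in that fit was 5.12e-05, 0.0166, 0.00204 and 0.00107. In the same fit Ebp was higher at day 3 (log2 0.27, edgeR adjusted p 0.0437). Whether the motif goes with a fall was not tested. The stretches shown here are those of 4 sterol genes that were lower after injury, which hold CCAAT, and of Ugt8a, the myelin galactolipid enzyme, which was lower too and holds none. Each is RefSeq sequence of build GRCm38.p6, written 5′ to 3′ on the gene's strand and ending at the base before the transcript start. Capitals mark CCAAT, or ATTGG where it lies on the opposite strand, and in Hmgcs1 also TCACCCCA. None overlaps the gene's locus in the deposited table. They lie at chr13:119690101-119690350 (plus strand) for Hmgcs1, chr8:122443423-122443672 (minus) for Mvd, chrX:72918271-72918520 (plus) for Nsdhl, chr9:42264301-42264550 (minus) for Sc5d and chr3:125938653-125938902 (minus) for Ugt8a.
Hmgcs1: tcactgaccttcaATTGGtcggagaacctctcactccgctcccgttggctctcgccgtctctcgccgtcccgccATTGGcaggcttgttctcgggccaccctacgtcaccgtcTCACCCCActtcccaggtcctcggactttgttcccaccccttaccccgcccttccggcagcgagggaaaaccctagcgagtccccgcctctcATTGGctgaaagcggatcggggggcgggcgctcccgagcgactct
Mvd: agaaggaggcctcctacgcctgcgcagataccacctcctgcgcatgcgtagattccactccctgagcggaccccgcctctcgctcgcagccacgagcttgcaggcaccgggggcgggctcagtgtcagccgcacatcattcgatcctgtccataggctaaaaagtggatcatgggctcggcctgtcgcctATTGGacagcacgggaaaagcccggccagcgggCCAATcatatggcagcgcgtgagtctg
Nsdhl: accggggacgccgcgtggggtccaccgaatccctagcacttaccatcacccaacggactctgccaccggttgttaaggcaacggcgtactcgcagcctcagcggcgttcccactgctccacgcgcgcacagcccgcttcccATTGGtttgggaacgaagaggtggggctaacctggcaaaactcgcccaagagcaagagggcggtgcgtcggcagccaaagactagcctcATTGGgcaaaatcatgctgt
Sc5d: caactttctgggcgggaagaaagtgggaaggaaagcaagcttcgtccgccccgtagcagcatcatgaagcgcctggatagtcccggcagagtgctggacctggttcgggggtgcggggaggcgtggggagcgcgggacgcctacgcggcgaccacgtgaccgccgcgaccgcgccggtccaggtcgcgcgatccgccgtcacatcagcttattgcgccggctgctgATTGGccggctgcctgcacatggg
Ugt8a: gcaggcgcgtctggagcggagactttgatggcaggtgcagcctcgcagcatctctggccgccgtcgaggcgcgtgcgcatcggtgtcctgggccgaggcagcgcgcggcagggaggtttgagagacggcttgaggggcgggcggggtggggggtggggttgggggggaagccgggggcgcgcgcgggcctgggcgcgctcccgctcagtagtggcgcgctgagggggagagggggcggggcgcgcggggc
In Hmgcs1 the TCACCCCA begins 137 bases before the start and lies between CCAAT matches that begin at 176 and 45. The CCAAT matches nearest the start begin 27 bases before it in Mvd, 20 in Nsdhl and 24 in Sc5d.

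Total gene counts were 14299679 to 24022923 per library, and the least counted of the 38 genes, the sterol reductase Tm7sf2, had at least 125 counts in every library. Replicates differed by more than counting noise in every pair. Day 21 replicate 2 stood apart, with a median squared deviation per gene of 12.6 and 14.2 against its partners, where the other day 21 pair gave 1.34 and counting alone gives 0.455. Day 0 replicate 1 stood apart less, at 2.93 and 2.97 against 0.802. In day 21 replicate 2, 14 of the 38 genes lay above both other day 21 libraries, 21 lay below both and 3 between them. Levels below are FPKM as deposited, in the order of replicates 1, 2 and 3. Fold changes are log2 values ± SE from edgeR on the counts, and a gene was called higher or lower at a Benjamini-Hochberg adjusted p under 0.05 over all genes tested.

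More of the lipid synthesis genes fell than rose after transection. Of the 18 sterol enzymes 6 (33.3%) were lower at day 21 than at day 3, against 16.1% of all genes. At day 3, 18 of the 38 genes fell and 1, Cers2, rose, with a median log2 fold change of -0.31 against day 0. At day 21, 21 fell and 1, Srebf1, rose, with a median of -0.54, and 37 of the 38 had a negative value. Over all genes tested, 19.5% were called lower and 24.8% higher at day 3, and 11.3% lower and 17.9% higher at day 21, with medians of 0.008 and 0.018. Both comparisons share the day 0 libraries. Of the 38 genes, 15 fell at both days, 3 were called lower at day 3 alone and 6 at day 21 alone, and 12 were not called at either day. Shares of all genes with these joint patterns were not computed, so the counts show nothing particular to the 38. In tissue RNA, fewer cells of a type and less RNA per cell cannot be told apart.

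Without day 21 replicate 2 the counts grew to 22 lower and 3 higher at day 3, and to 30 lower and 1 higher at day 21. In that fit 29.2% of all genes were called lower at day 3 and 22.4% at day 21, and 32.0% and 25.1% were called higher. After quantile normalization 41.8% of all calls at day 3 and 48.0% at day 21 were in the higher direction, against 56.0% and 61.3% with the main scaling, and 15 and 16 of the 38 genes were lower. That scaling moved the median of all genes at day 3 to -0.104.

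**Figure D1:**
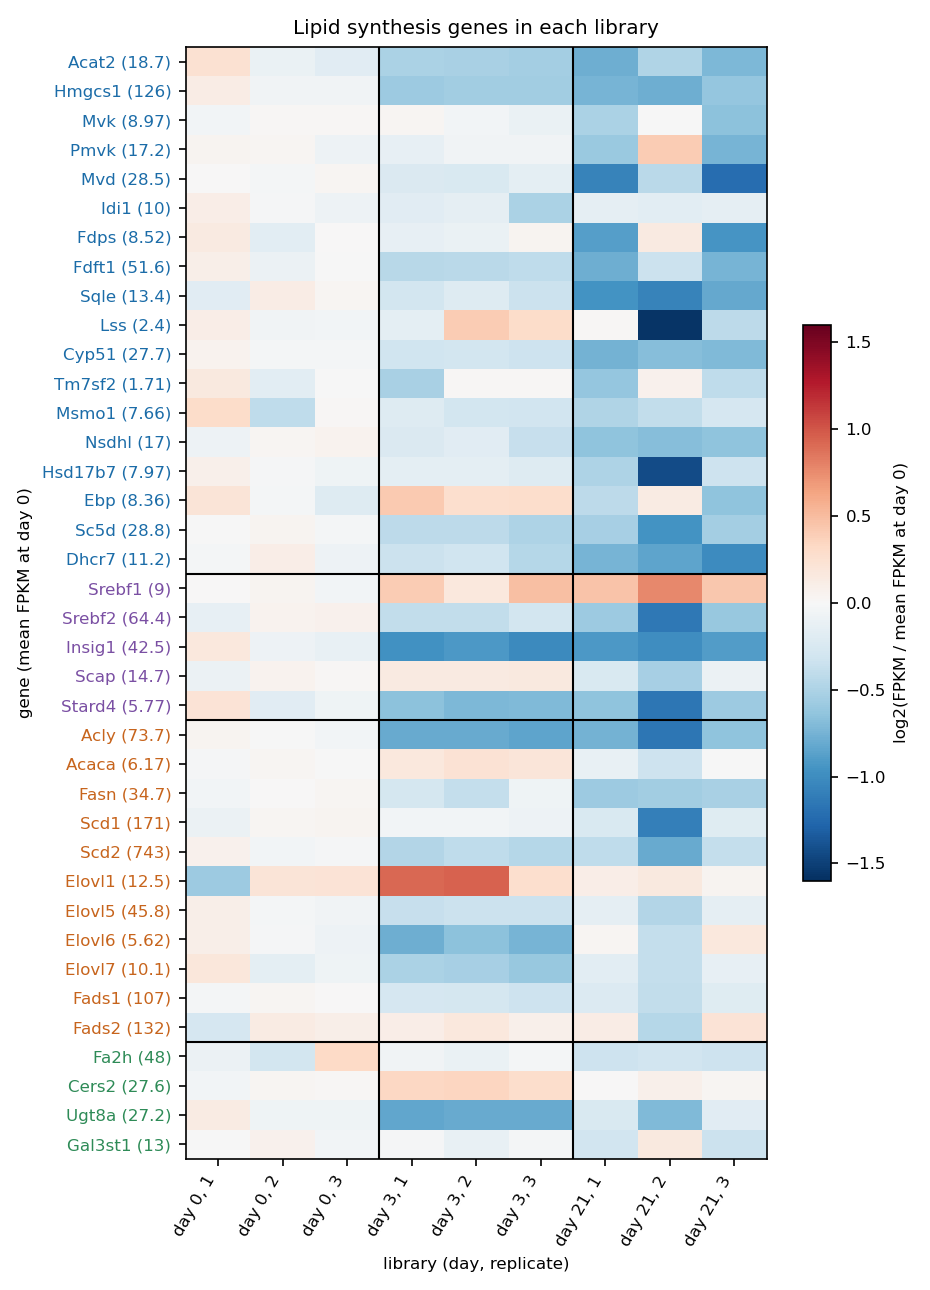
Level of each of the 38 genes in each of the 9 libraries as log2(FPKM / mean FPKM at day 0), blue below and red above the day 0 mean; rows are ordered by role, name colours mark sterol enzymes, sterol control and transport, fatty acid and sphingolipid genes, and the number beside a name is its mean FPKM at day 0. Most rows turn blue at day 3 and bluer at day 21 in the sterol block, while Cers2, Elovl1 and Ebp are red at day 3, and day 21 replicate 2 often departs from its partners.

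Among the enzymes that lead from acetyl-CoA to squalene, 4 of 8 fell at day 3 and 5 of 8 at day 21. Over all genes 19.5% and 11.3% fell. Acat2 joins acetyl-CoA units at the entry of the pathway. It stood at 22.2, 17.4 and 16.5 FPKM at day 0, 13.2, 13.0 and 12.8 at day 3, and 10.9, 13.4 and 11.4 at day 21. No later library reached a day 0 library, and the log2 fold changes were -0.58 ± 0.12 at day 3 and -0.78 ± 0.12 at day 21 (edgeR adjusted p 0.00447 and 0.00182). Hmgcs1, at chr13:119690462-119708086 on the plus strand, makes hydroxymethylglutaryl-CoA, the precursor of mevalonate. Its level was 137, 121 and 121 FPKM at day 0, 84.0, 85.5 and 85.5 at day 3, and 75.5, 73.0 and 82.2 at day 21. The 3 groups did not overlap, and Hmgcs1 fell by 35.1% at day 3 and by 44.1% at day 21 (log2 -0.62 ± 0.09 and -0.84 ± 0.09, edgeR adjusted p 0.000518 and 0.00021).

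Mvk and Mvd, the kinase and the decarboxylase that turn mevalonate toward isoprene units, fell at day 21 and were not called at day 3. Mvk was at 8.72, 9.10 and 9.10 FPKM at day 0, 9.16, 8.68 and 8.35 at day 3, and 6.32, 8.94 and 5.67 at day 21. Its day 21 replicate 2 lay within the day 0 range and the other day 21 libraries below it (log2 -0.49 ± 0.15, edgeR adjusted p 0.0405). The Mvk call was lost in 8 of the 9 fits that left out 1 library, all except that without day 21 replicate 2 (edgeR adjusted p 0.000169 to 0.115). Mvd was at 28.5, 27.9 and 29.0 FPKM at day 0, 24.3, 24.1 and 25.5 at day 3, and 13.6, 21.1 and 12.2 at day 21. All day 21 libraries lay below all others, and the log2 fold change was -1.0 ± 0.18 (edgeR adjusted p 0.00317), so that Mvd fell by 49.9%.

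Idi1, which interconverts the isoprene units, passed at day 3 and not at day 21. It was at 10.8, 9.89 and 9.44 FPKM at day 0, 8.84, 9.02 and 7.07 at day 3, and 9.09, 8.87 and 9.05 at day 21. Neither later group overlapped day 0, with log2 fold changes of -0.32 ± 0.12 and -0.28 ± 0.12 (edgeR adjusted p 0.0483 and 0.103). The Idi1 call at day 3 was lost in 8 of 9 fits that left out 1 library, all except that without day 21 replicate 2 (edgeR adjusted p 0.0136 to 0.179). Fdft1, squalene synthase, makes the first committed sterol precursor. It was at 55.1, 48.3 and 51.5 FPKM at day 0, 37.8, 38.3 and 39.0 at day 3, and 30.1, 40.6 and 30.9 at day 21. Every later library lay below every day 0 library (log2 -0.48 ± 0.12 and -0.74 ± 0.12, edgeR adjusted p 0.00959 and 0.00194). Fdft1 exons overlap the neighbouring cathepsin gene Ctsb over 18.3% of their bases in GENCODE M21. Whether counting used strand is not stated in the sources used here. The share of Fdft1 reads that fall there was not measured, so the level of Fdft1 is uncertain.

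The phosphomevalonate kinase gene Pmvk and the farnesyl diphosphate synthase gene Fdps were called at neither day. At day 21 their log2 fold changes were -0.35 ± 0.25 and -0.60 ± 0.25, and in both the second replicate lay far above the others, at 22.7 FPKM against 11.4 and 10.3 for Pmvk and 9.42 against 4.62 and 4.42 for Fdps. Without that library the values were -0.77 and -1.02 (edgeR adjusted p 5.12e-05 and 3.04e-05). Fdps shares 26.7% of its exon bases with the gene model Gm43738, so its level is uncertain.

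**Figure D2:**
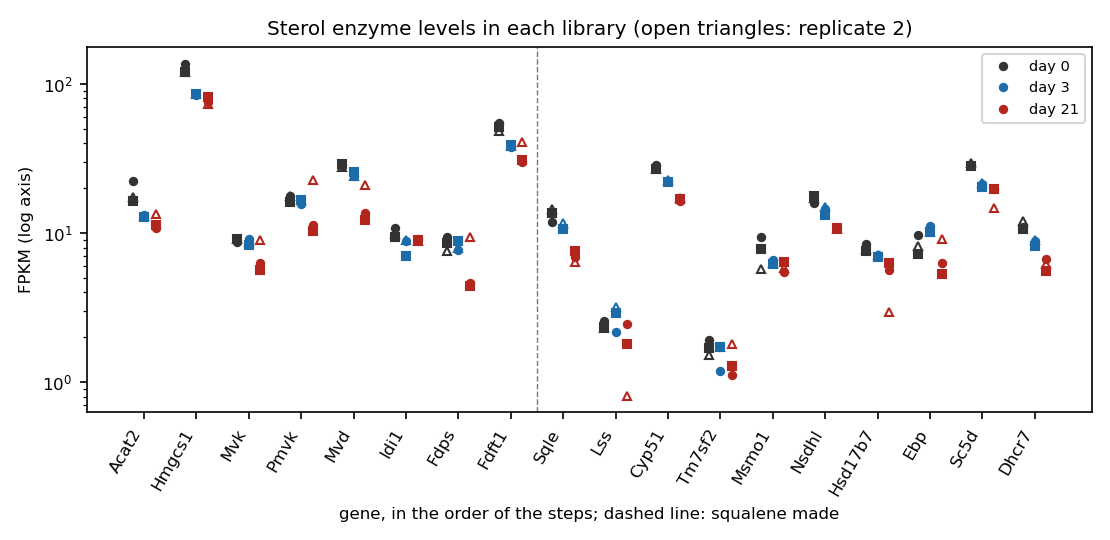
FPKM on a log axis for the 18 sterol enzymes in the order of their steps, with 1 point per library (black day 0, blue day 3, red day 21; open triangles mark replicate 2) and a dashed line where squalene is made. Day 21 points of Sqle, Cyp51, Nsdhl and Dhcr7 lie below their day 3 points, which lie below day 0.

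From squalene to cholesterol, 4 of 10 enzymes fell at day 3 and 7 of 10 at day 21, against 19.5% and 11.3% of all genes. Sqle, at chr15:59315077-59331192 on the plus strand, adds oxygen to squalene and is a control point of the pathway. It was at 11.8, 14.6 and 13.7 FPKM at day 0, 10.9, 11.6 and 10.6 at day 3, and 6.89, 6.41 and 7.58 at day 21. The groups did not overlap, and its value of -0.33 ± 0.13 at day 3 missed the threshold where -1.07 ± 0.13 at day 21 passed it (edgeR adjusted p 0.0605 and 0.000354). Sqle had the lowest log2 fold change of the 38 genes at day 21 and fell by 52.3%. Cyp51 removes a methyl group from lanosterol. It was at 28.8, 27.1 and 27.1 FPKM at day 0, 22.3, 22.6 and 22.1 at day 3, and 16.4, 17.2 and 17 at day 21. Its 3 groups stood in 3 separate bands (log2 -0.36 ± 0.08 and -0.84 ± 0.08, edgeR adjusted p 0.00698 and 0.00012).

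Msmo1, Nsdhl and Hsd17b7 together strip methyl groups from the sterol ring. Msmo1, the oxidase, was at 9.41, 5.78 and 7.79 FPKM at day 0, 6.64, 6.27 and 6.18 at day 3, and 5.48, 5.84 and 6.35 at day 21. Its groups overlapped through day 0 replicate 2, and the call at day 21 (log2 -0.50 ± 0.16, edgeR adjusted p 0.0409) was lost in 7 of the 9 fits without 1 library, all except those without day 0 replicate 2 and without day 21 replicate 2 (edgeR adjusted p 0.0096 to 0.145). Nsdhl, the dehydrogenase, was at 16.0, 17.3 and 17.6 FPKM at day 0, 14.5, 15.0 and 13.2 at day 3, and 10.9, 10.6 and 10.9 at day 21. Its groups did not overlap (log2 -0.31 ± 0.10 and -0.78 ± 0.10, edgeR adjusted p 0.0371 and 0.00068). The Nsdhl call at day 3 was lost in 6 of 9 fits, those without day 0 replicate 2 or 3, any day 3 library or day 21 replicate 1 (edgeR adjusted p 0.00721 to 0.145). Hsd17b7, the reductase of the complex, was at 8.46, 7.85 and 7.59 FPKM at day 0, 7.15, 7.16 and 6.90 at day 3, and 5.67, 2.96 and 6.33 at day 21. Day 21 replicate 2 was the lowest library, and the call at day 21 (log2 -0.79 ± 0.24, edgeR adjusted p 0.0371) was lost in 7 of 9 fits, all except those without day 21 replicate 2 or 3 (edgeR adjusted p 0.000477 to 0.0894).

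The last steps set the final unsaturation of the ring. Sc5d, a desaturase, was at 28.6, 29.7 and 28.2 FPKM at day 0, 21.5, 21.6 and 20.5 at day 3, and 19.9, 14.8 and 19.8 at day 21. The groups did not overlap (log2 -0.50 ± 0.14 and -0.79 ± 0.14, edgeR adjusted p 0.0162 and 0.00286), and the day 3 call was lost in 3 of 9 fits, those without day 0 replicate 2 or day 3 replicate 1 or 3 (edgeR adjusted p 4.65e-05 to 0.0617). Dhcr7, the reductase that makes cholesterol from its direct precursor, was at 11, 12.1 and 10.6 FPKM at day 0, 8.80, 9.01 and 8.16 at day 3, and 6.67, 6.22 and 5.56 at day 21. Again the groups did not overlap (log2 -0.43 ± 0.11 and -0.99 ± 0.11, edgeR adjusted p 0.0128 and 0.000272). The Dhcr7 call at day 3 was lost without day 0 replicate 2 and without day 3 replicate 3 (edgeR adjusted p 0.00214 to 0.0606 over the 9 fits).

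Ebp, the sterol isomerase, had a different course and was called against day 0 at neither day. It was at 9.66, 8.18 and 7.25 FPKM at day 0, 11.2, 10.1 and 10.2 at day 3, and 6.28, 9.15 and 5.35 at day 21. All day 3 libraries lay above all others (log2 0.28 ± 0.18, edgeR adjusted p 0.253), and from day 3 to day 21 Ebp fell by 37.4%. Lanosterol synthase, Lss, and Tm7sf2 were low, at means of 2.40 and 1.71 FPKM at day 0, and were called at neither day. In day 21 replicate 2 Lss was at 0.812 FPKM, against 2.44 and 1.79 in the other day 21 libraries.

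Among the genes of sterol control and transport, 2 of 5 fell at day 3, and at day 21 3 fell and 1 rose. Over all genes 19.5% fell at day 3, and 11.3% fell and 17.9% rose at day 21. Srebf2 encodes the SREBP that chiefly drives the sterol enzymes. It was at 58.9, 67.0 and 67.3 FPKM at day 0, 49.2, 49.1 and 52.6 at day 3, and 43.0, 29.2 and 42.3 at day 21. The groups did not overlap, and the value passed at day 21 and not at day 3 (log2 -0.88 ± 0.16 and -0.41 ± 0.16, edgeR adjusted p 0.00405 and 0.0686). Insig1, at chr5:28071363-28078662 on the plus strand, is both a brake on SREBP processing and itself an SREBP target. It was at 47.9, 40.3 and 39.2 FPKM at day 0, 21.7, 22.5 and 20.9 at day 3, and 22.4, 21.4 and 22.8 at day 21. Insig1 fell by 50.7% at day 3, the lowest log2 value of the 38 genes at that day, and fell by 52.0% at day 21, with the later groups overlapping (log2 -1.02 ± 0.10 and -1.06 ± 0.10, edgeR adjusted p 4.7e-05 and 0.000101).

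Stard4, a carrier that moves cholesterol between membranes, was at 6.74, 5.08 and 5.48 FPKM at day 0, 3.66, 3.5 and 3.54 at day 3, and 3.69, 2.59 and 3.86 at day 21. It too was low at both days and the later groups overlapped (log2 -0.74 ± 0.17 and -0.89 ± 0.17, edgeR adjusted p 0.00649 and 0.00471). Srebf1 encodes the SREBP isoforms that drive fatty acid synthesis. Unlike Srebf2 it was higher after injury, at 9.01, 9.24 and 8.75 FPKM at day 0, 11.9, 10.1 and 12.6 at day 3, and 12.3, 15.4 and 12.1 at day 21. All later libraries lay above day 0 (log2 0.31 ± 0.12 and 0.44 ± 0.12, edgeR adjusted p 0.0739 and 0.0283), and the call at day 21 was lost without any day 0 library and without day 3 replicate 1 (edgeR adjusted p 0.0135 to 0.091 over the 9 fits). Scap, which escorts SREBP out of the endoplasmic reticulum, was at 13.8, 15.3 and 14.9 FPKM at day 0, 16.3, 16.2 and 16.4 at day 3, and 12.4, 10.2 and 13.8 at day 21. It was called against day 0 at neither day (log2 0.10 ± 0.13 and -0.40 ± 0.13, edgeR adjusted p 0.585 and 0.0525), and its level is uncertain where 13.2% of its exon bases are shared with another gene model.

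**Figure D3:**
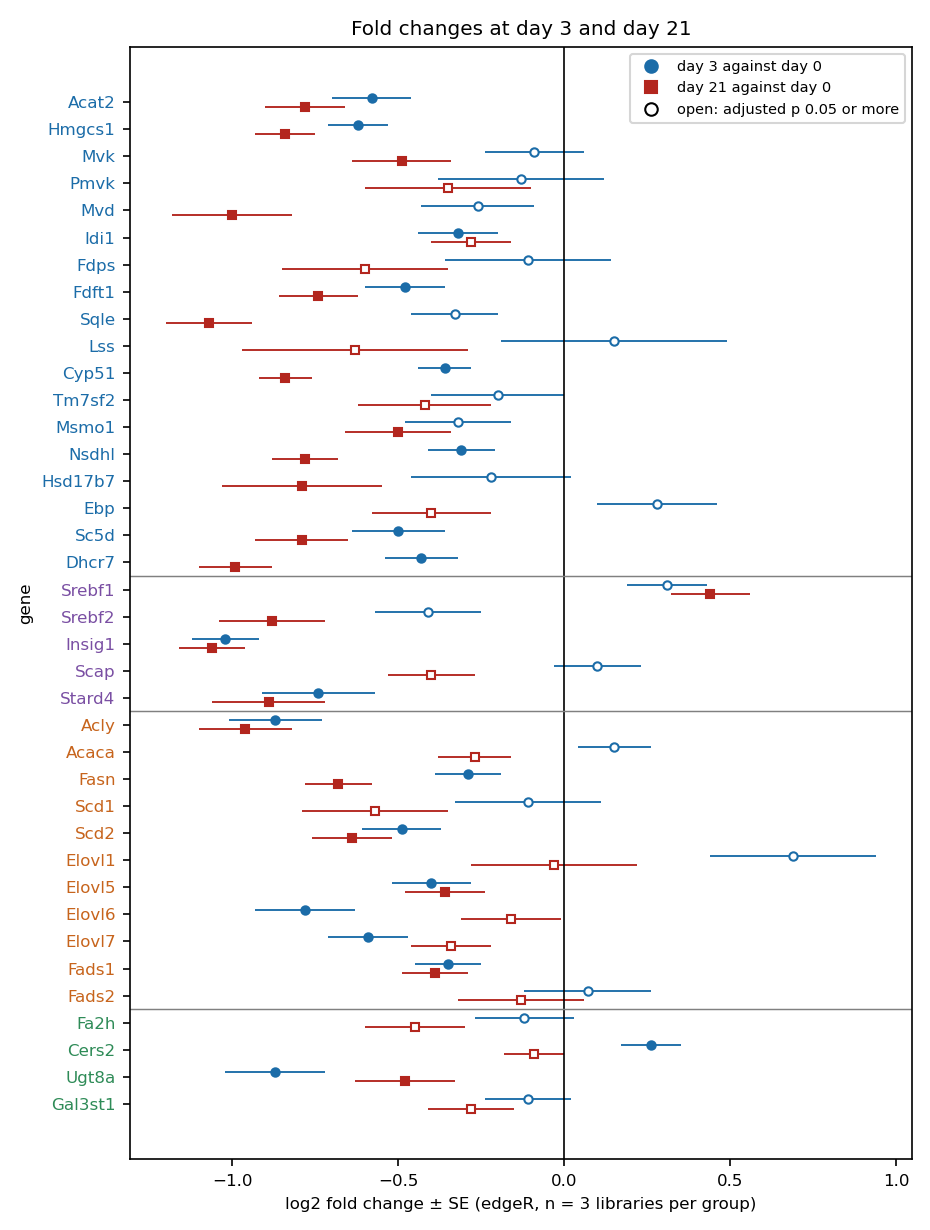
Log2 fold change ± SE from edgeR (n = 3 libraries per group) for the 38 genes at day 3 (blue circles) and day 21 (red squares) against day 0; filled symbols passed an adjusted p of 0.05 and open ones did not, and name colours mark the roles. Day 21 lies left of day 3 for every sterol enzyme except Idi1, and well to its right for Elovl6, Elovl7 and Ugt8a.

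Of the fatty acid genes, 7 of 11 fell at day 3 and 5 of 11 at day 21, against 19.5% and 11.3% of all genes. With day 21 replicate 2 left out, 7 and 8 of the 11 were lower, against 29.2% and 22.4% of all genes. With day 0 replicate 1 left out 7 and 4 were lower, and 2741 and 1357 of all 16762 genes. Acly makes cytosolic acetyl-CoA from citrate and so feeds both the fatty acid and the sterol pathway. It was at 76.1, 73.5 and 71.4 FPKM at day 0, 42.1, 42.1 and 41.0 at day 3, and 43.5, 33.1 and 47.0 at day 21. It fell by 45.3% at day 3 and fell by 48.6% at day 21, and the later groups overlapped each other and not day 0 (log2 -0.87 ± 0.14 and -0.96 ± 0.14, edgeR adjusted p 0.000745 and 0.000978). Fasn, the synthase that builds palmitate, was at 33.6, 35.0 and 35.6 FPKM at day 0, 28.6, 26.7 and 33.0 at day 3, and 23.1, 23.5 and 24.2 at day 21. The groups did not overlap (log2 -0.29 ± 0.10 and -0.68 ± 0.10, edgeR adjusted p 0.0461 and 0.00139), and the day 3 call was lost in 6 of 9 fits, all except those without day 0 replicate 1, day 3 replicate 3 or day 21 replicate 2 (edgeR adjusted p 0.00927 to 0.179).

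Acaca, the carboxylase that makes malonyl-CoA for Fasn, did not share its course. It was at 6.08, 6.32 and 6.12 FPKM at day 0, 6.96, 7.26 and 7.04 at day 3, and 5.66, 4.92 and 6.15 at day 21. All day 3 libraries lay above day 0, yet the value of 0.15 ± 0.11 did not pass at day 3, nor did -0.27 ± 0.11 at day 21 (edgeR adjusted p 0.328 and 0.104). Stearoyl-CoA desaturases make oleate from stearate. Scd2, the most abundant of the 38 transcripts by FPKM, was at 778, 720 and 732 at day 0, 539, 561 and 543 at day 3, and 561, 424 and 568 at day 21. Later libraries all lay below day 0 (log2 -0.49 ± 0.12 and -0.64 ± 0.12, edgeR adjusted p 0.0107 and 0.00494). The neighbouring gene Scd1, at a day 0 mean of 171 ± 9.38 FPKM (SD, n = 3), was called at neither day (log2 -0.11 ± 0.22 and -0.57 ± 0.22), and its day 21 libraries stood at 145, 80.3 and 149 FPKM.

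Elongases of the Elovl family lengthen fatty acids, and their transcripts took different courses. Elovl6, at chr3:129532355-129638495 on the plus strand, lengthens palmitate to stearate. It was at 6.0, 5.54 and 5.33 FPKM at day 0, 3.26, 3.57 and 3.36 at day 3, and 5.72, 4.32 and 6.34 at day 21. It fell by 41.7% at day 3, and at day 21 it overlapped day 0 (log2 -0.78 ± 0.15 and -0.16 ± 0.15, edgeR adjusted p 0.00255 and 0.456). Elovl7, which lengthens saturated chains further, was at 11.5, 9.07 and 9.62 FPKM at day 0, 7.09, 7.0 and 6.65 at day 3, and 9.01, 7.76 and 9.23 at day 21. It passed at day 3, when no library reached day 0, and not at day 21, when the ranges met (log2 -0.59 ± 0.12 and -0.34 ± 0.12, edgeR adjusted p 0.00342 and 0.0646). Elovl1, which lengthens saturated very long chains, was called at neither day: its day 3 libraries stood at 23.6, 24.1 and 15.0 FPKM and day 0 at 8.34, 14.4 and 14.6 (log2 0.69 ± 0.25, edgeR adjusted p 0.0511).

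Elovl5, Fads1 and Fads2 lengthen and desaturate polyunsaturated fatty acids. Elovl5 was at 48.9, 44.7 and 43.9 FPKM at day 0, 35.6, 36.1 and 36.2 at day 3, and 41.5, 33.2 and 41.6 at day 21. No later library reached day 0 (log2 -0.40 ± 0.12 and -0.36 ± 0.12, edgeR adjusted p 0.0202 and 0.0433). The Elovl5 calls were lost at day 3 without day 0 replicate 2 or any day 3 library (edgeR adjusted p 6.1e-05 to 0.0697) and at day 21 without any day 0 or day 3 library (0.00459 to 0.101 by the same adjusted p). Fads1, a desaturase, was at 105, 109 and 107 FPKM at day 0, 88.6, 87.7 and 85.3 at day 3, and 92.1, 81.1 and 93.3 at day 21. Again day 0 stood above the rest (log2 -0.35 ± 0.10 and -0.39 ± 0.10, edgeR adjusted p 0.0174 and 0.0159). The Fads1 calls were lost without day 0 replicate 2 or 3 at both days, and at day 3 also without any day 3 library (edgeR adjusted p 0.000187 to 0.0698 at day 3 and 0.0014 to 0.061 at day 21). Fads2 was called at neither day, with log2 fold changes of 0.07 ± 0.19 and -0.13 ± 0.19.

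The 4 sphingolipid enzymes act in series on the ceramides of myelin. Of them 1 rose and 1 fell at day 3, where 24.8% of all genes rose and 19.5% fell. At day 21 1 of the 4 fell, against 11.3% of all genes. Without day 21 replicate 2, 2 fell at day 21, against 22.4% of all genes. Without day 0 replicate 1, 0 rose and 1 fell at day 3, and 0 rose and 0 fell at day 21. Whether these counts differ from the shares over all genes was not tested, and 4 genes are few for it. Cers2 joins very long-chain fatty acids to the sphingoid base. It was at 26.7, 28.3 and 27.9 FPKM at day 0, 34.6, 34.9 and 33.5 at day 3, and 27.6, 29.3 and 28.1 at day 21. All day 3 libraries lay above all others (log2 0.26 ± 0.09, edgeR adjusted p 0.0358), and the call was lost in 7 of 9 fits, all except those without day 21 replicate 2 or 3 (edgeR adjusted p 0.00248 to 0.119). Ugt8a, at chr3:125865271-125938619 on the minus strand, adds galactose to ceramide and so makes galactosylceramide, a main myelin lipid. It was at 29.7, 26.0 and 26.0 FPKM at day 0, 15.3, 15.6 and 15.5 at day 3, and 22.9, 16.7 and 24.0 at day 21. Ugt8a fell by 45.2% at day 3 and fell by 28.3% at day 21, both against day 0 (log2 -0.87 ± 0.15 and -0.48 ± 0.15, edgeR adjusted p 0.00118 and 0.0352). Its call at day 21 was lost without any day 0 or day 3 library (edgeR adjusted p 0.00189 to 0.092 over the 9 fits). Fa2h, which hydroxylates the fatty acid, and Gal3st1, which adds sulfate to make sulfatide, were called at neither day. The log2 fold changes of Fa2h were -0.12 ± 0.15 and then -0.45 ± 0.15 (edgeR adjusted p 0.545 and 0.0526), and those of Gal3st1 -0.11 ± 0.13 and then -0.28 ± 0.13 (edgeR adjusted p 0.531 and 0.157). Fa2h varied most at day 0, at 44.8, 39.2 and 60.1 FPKM, against 38.1, 38.7 and 38.3 at day 21.

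Day 21 was then compared with day 3 directly. Of the 38 genes 10 fell and 1 rose, with a median log2 fold change of -0.27; over all genes 16.1% were lower and 11.7% higher, with a median of 0.016. Of the 10, 6 were sterol enzymes: Sqle (log2 -0.74 ± 0.13), Mvd (-0.73 ± 0.18), Ebp (-0.68 ± 0.18), Dhcr7 (-0.57 ± 0.11), Cyp51 (-0.48 ± 0.08) and Nsdhl (-0.47 ± 0.10), with edgeR adjusted p 0.00302, 0.0145, 0.0244, 0.00638, 0.00312 and 0.00991. In each of these 6 no day 21 library reached a day 3 library. They were chosen by a test on the same libraries, so this is no separate support, and the share over all genes was not computed. The others were Scap (-0.50 ± 0.13), Acaca (-0.42 ± 0.11), Fasn (-0.39 ± 0.10) and Cers2 (-0.35 ± 0.09), with edgeR adjusted p 0.0233, 0.0235, 0.0214 and 0.0168. Elovl6 alone rose, by 53.2% (0.62 ± 0.15, edgeR adjusted p 0.0153). Ugt8a was 30.7% above its day 3 level and did not pass (0.39 ± 0.15, edgeR adjusted p 0.0797).

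The calls for Sqle, Cyp51, Nsdhl and Dhcr7 held in all 22 alternative fits. The other 7 were all lost without day 3 replicate 3 and also without day 21 replicate 1, with the highest edgeR adjusted p over the 9 fits between 0.0532 for Mvd and 0.0956 for Fasn. The number of genes lower at day 21 than at day 3 was 5, 6 and 5 without day 3 replicate 1, 2 and 3, 5 without day 21 replicate 1, and 19 without day 21 replicate 2. In that last fit 25.7% of all genes were called lower and 23.5% higher, and 4 of the 38 rose: Elovl5, Elovl6, Elovl7 and Ugt8a.

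Read by role, the sterol enzymes had medians of -0.31 at day 3 and -0.76 at day 21 against day 0, the fatty acid genes -0.35 and -0.36, and the sphingolipid genes -0.12 and -0.36. Per library, on FPKM relative to the day 0 mean, the median sterol enzyme stood at log2 -0.23, -0.19 and -0.32 at day 3 and -0.63, -0.46 and -0.65 at day 21, and these groups did not overlap. The median fatty acid gene stood at -0.28, -0.34 and -0.33 at day 3 and -0.16, -0.45 and -0.14 at day 21, where the second replicate lay below and the others above the day 3 range. The median sphingolipid gene stood at -0.04, -0.12 and -0.04 at day 3 and -0.28, -0.11 and -0.25 at day 21. Against day 3, 6 of 18 sterol enzymes, 2 of 11 fatty acid genes and 1 of 4 sphingolipid genes were lower at day 21; whether the roles differ was not tested. Within the sterol pathway the steps up to squalene had a day 21 median of -0.67 and the steps from squalene on -0.78. Without day 21 replicate 2 the sterol enzymes lower were 11 of 18 at day 3, 16 at day 21 and 12 for day 21 against day 3. Over all genes that fit called 29.2%, 22.4% and 25.7% lower in these comparisons. In the same fit 1 of the 5 sterol control and transport genes was higher at each day, and 3 were lower at day 3 and 4 at day 21, against 2 and 3 lower with all libraries. Without day 0 replicate 1 the sterol enzymes lower were 8 of 18 at day 3, 9 at day 21 and 6 for day 21 against day 3. That fit called 2741, 1357 and 2417 of all 16762 genes lower in the same comparisons. Of the 5 sterol control and transport genes it called 3 lower and 0 higher at each day.

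**Figure D4:**
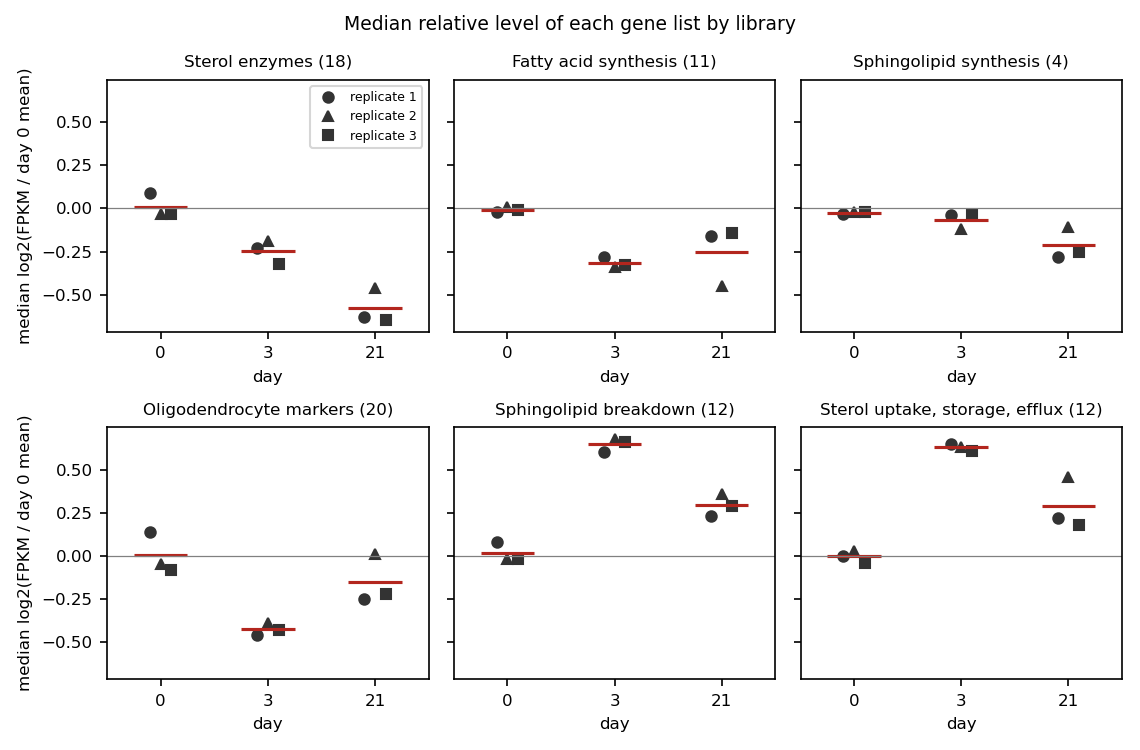
Median over each gene list of log2(FPKM / mean FPKM at day 0) in each library, by day; symbols are replicates, red bars the mean of 3 libraries, and list sizes are in the panel titles. Sterol enzymes step down from day 0 to day 3 to day 21, oligodendrocyte markers are lowest at day 3, and the breakdown and uptake lists are highest at day 3.

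Further genes of the same pathways were read against the shares over all genes given above, 24.8% higher and 19.5% lower at day 3 and 17.9% higher and 11.3% lower at day 21. Of 12 further genes of sterol synthesis and control, 4 rose (33.3%) and 2 fell (16.7%) at day 3, and 1 rose and 1 fell (8.33% each) at day 21. Leaving out day 21 replicate 2 gave 6 higher and 4 lower at day 3, and 5 higher and 3 lower at day 21. That fit called 32.0% of all genes higher and 29.2% lower at day 3, and 25.1% and 22.4% at day 21. Without day 0 replicate 1 the gene higher at day 21 was lost. Cyb5r3, a reductase that supplies electrons to sterol and fatty acid desaturation, rose at day 3 (37.3 to 121 FPKM, log2 1.65 ± 0.11, edgeR adjusted p 4.25e-06), and so did Por, the electron donor of Cyp51 and Sqle (0.69 ± 0.12, edgeR adjusted p 0.00155). Tmem97, a sterol-regulated membrane protein, fell at day 21 (-0.61 ± 0.14, edgeR adjusted p 0.0103). Of 21 tested further fatty acid genes, 4 rose and 9 fell (42.9%) at day 3, and 2 rose and 7 fell (33.3%) at day 21. If day 21 replicate 2 was dropped, 6 were higher and 10 lower at day 3, then 2 higher and 9 lower at day 21. Without day 0 replicate 1 the genes lower at day 21 numbered 4. Thrsp, linked to lipogenesis, fell at day 3 (11.2 to 5.13 FPKM, log2 -1.18 ± 0.22, edgeR adjusted p 0.00224), and Acss2, which makes acetyl-CoA from acetate, fell at day 21 (7.88 to 5.05 FPKM, -0.76 ± 0.11, edgeR adjusted p 0.00096). Mlxipl, a carbohydrate-responsive transcription factor of lipogenesis, rose at both days from 0.405 FPKM (log2 1.81 ± 0.17 and 1.90 ± 0.17, edgeR adjusted p 3.21e-05 and 6.62e-05).

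Of 21 tested other sphingolipid synthesis genes, 3 fell (14.3%) at day 3, and 3 rose (14.3%) and 2 fell (9.52%) at day 21, shares near or below those over all genes. In the fit without day 21 replicate 2, 5 rose and 6 fell at day 3, and 5 rose and 4 fell at day 21. The shares over all genes were then 32.0% higher and 29.2% lower at day 3, and 25.1% and 22.4% at day 21. Without day 0 replicate 1, 1 rose at day 21. Sptssb, a small subunit of the serine palmitoyltransferase that begins sphingolipid synthesis, fell from 3.56 to 1.03 FPKM at day 3 (log2 -1.84 ± 0.17, edgeR adjusted p 2.67e-05) and stood at 3.57 FPKM at day 21. St3gal5, which begins ganglioside synthesis, was lower at both days (-0.78 ± 0.12 and -0.63 ± 0.12, edgeR adjusted p 0.000536 and 0.00365). Of 5 ether lipid genes 1, Far2, fell at day 3.

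Lists of genes that break down sphingolipids, or take up, store and export sterol, held more genes that rose than fell at day 3. Of 12 lysosomal sphingolipid breakdown genes 7 rose (58.3%, against 24.8% of all genes) at day 3, with a median log2 fold change of 0.57, and 3 rose at day 21, where the share over all genes was 17.9%. Dropping day 21 replicate 2 gave 8 higher at day 3, and 3 higher and 2 lower at day 21. Over all genes that fit called 32.0% higher and 29.2% lower at day 3, and 25.1% and 22.4% at day 21. Hexa, whose product takes part in trimming gangliosides, rose at both days, from 28.9 FPKM at day 0 to 99.9 at day 3 and 94.9 at day 21 (log2 1.74 ± 0.16 and 1.59 ± 0.16, edgeR adjusted p 2.5e-05 and 0.000118). Of 12 sterol uptake, storage and efflux genes 6 rose (50.0%) and 2, Cyp27a1 and Cyp46a1, fell at day 3, and 4 rose (33.3%) at day 21. Without day 21 replicate 2, 8 rose and 2 fell at day 3, and 4 rose and 3 fell at day 21. Abca1, the exporter of cholesterol to apolipoproteins, went from 3.12 FPKM at day 0 to 23.7 at day 3 and 15.3 at day 21 (log2 2.87 ± 0.25 and 2.17 ± 0.25, edgeR adjusted p 2.15e-05 and 0.000272). Ch25h, which makes an oxysterol that restrains SREBP processing, went from 0.783 FPKM to 23.7 and 11.9 (4.83 ± 0.18 and 3.77 ± 0.18, edgeR adjusted p 1.5e-07 and 1.56e-06). Mylip, an oxysterol-induced ligase that degrades lipoprotein receptors, rose at both days as well (1.6 ± 0.15 and 1.23 ± 0.14, edgeR adjusted p 2.51e-05 and 0.000322).

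Markers of the cells that could carry these transcripts moved too. Of 20 oligodendrocyte markers 10 fell and 1 rose at day 3, with a median log2 fold change of -0.51, and 5 fell and 1 rose at day 21, with a median of -0.31. Their summed level was 2740 to 2970 FPKM at day 0, 2460 to 2520 at day 3 and 2540 to 2830 at day 21. From day 3 to day 21 6 of the 20 rose and 1 fell, with a median of 0.25, where 6 of 18 sterol enzymes fell, with a median of -0.44. In that comparison 11.7% of all genes rose and 16.1% fell. Without day 21 replicate 2 its marker median was 0.00, with 6 higher and 2 lower, and that of the sterol enzymes -0.44. The shares over all genes were then 23.5% higher and 25.7% lower. Without day 21 replicate 2, 13 of the 20 markers were lower at day 21 than at day 0, where 22.4% of all genes were. Without day 0 replicate 1, 2 of the 20 were lower, and 1357 of all 16762 genes tested. Summed FPKM of 10 neuron markers went from between 2050 and 2070 at day 0 to 1050 to 1070 at day 3 and 1380 to 1490 at day 21. The sum of 11 phagocyte markers went from between 65.6 and 71.6 to 1130 to 1140 and 644 to 894, and that of 10 Schwann cell markers from between 104 and 141 to 485 to 496 and 200 to 264. Of 10 astrocyte markers 4 rose and 4 fell at day 3 and 2 rose at day 21, and their sum went from between 1490 and 1540 FPKM to 2950 to 2990 and 2560 to 3040. Of 9 markers of oligodendrocyte precursors and newly formed oligodendrocytes 4 rose and 1 fell at day 3 and 1 rose at day 21. Their sum was 185 to 200 FPKM, then 222 to 227 and 196 to 216. Without day 21 replicate 2, 6 rose and 3 fell at day 3, and 6 rose and 1 fell at day 21. In that fit 32.0% of all genes rose and 29.2% fell at day 3, and 25.1% rose and 22.4% fell at day 21. The sum of 6 endothelial markers was 50.3 to 60.3 at day 0, 156 to 163 at day 3 and 50.2 to 68.6 at day 21. Skeletal muscle markers summed to 111 to 186 FPKM at day 21, against 13.3 to 17.7 at day 0. Of 8 adipocyte markers the hormone gene Lep was at 0 in every library, and Adipoq did not exceed 0.602 FPKM. The 8 summed to 3.97 to 4.3 FPKM at day 0, 14.4 to 15.0 at day 3 and 5.82 to 8.34 at day 21. Of the 3 that were tested, 2 rose at day 3 and 2 at day 21. The part of these marker changes in the lipid synthesis results was not tested.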

How the data were processed

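RNA was measured in 9 libraries of mouse spinal cord, 3 per day. Per the labels' protocols, poly-A RNA was made into paired-end TruSeq libraries. Per the submitters' processing notes, HISAT2 and StringTie were used, without versions and with the human build GRCh38, although the table holds mouse genes at GRCm38 loci; which annotation was used, and whether counting used strand, is not stated in the sources used here. Per the file headers, the authors deposited gene counts, which are not normalized, and FPKM, which are scaled by gene length and library total.

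The days were tested against each other with edgeR 4.0.16 (R 4.3.3) on counts (TMM scaling, default expression filter, robust quasi-likelihood fit of all 9 libraries, 6 residual degrees of freedom), two-sided, with Benjamini-Hochberg adjustment over 16494 genes and a threshold of 0.05. The SE is the log2 fold change divided by the square root of F. The method was run on simulated counts, with changes in a small part of the genes at day 3 and the same dispersion for every gene. No outlying library was simulated, so that run does not cover the departure of day 21 replicate 2. Alternatives were DESeq2 1.42.0, limma 3.58.1 on log2 FPKM or TPM with pseudocounts of 0.1 and 1, other scalings, filters and fits, a replicate block and each library left out. Removing a gene-length trend and leaving out 2 libraries together, or list counts without the libraries that stood apart, were chosen after seeing the data. Genes of the set were all accounted for; those called in any comparison are given in every library, and of each other pathway list up to 3 called genes per comparison with the largest changes and at least 1 FPKM could be named, and a few of these were left out here. The genes and lists were chosen with earlier results of these data known. Faxdc2 and Itgam could not be matched to 1 row by symbol. Replicate numbers were not taken to pair samples, since same-numbered libraries did not deviate together (correlations -0.146 to 0.107).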

Additional observations from a re-analysis of the deposited data

Results flagged for a closer look

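For 11 genes the change from day 0 differed between day 21 and day 3 by the direct edgeR test of day 21 against day 3 at an adjusted p under 0.05. The day 21 log2 fold change minus that of day 3 was -0.74 for Sqle, -0.73 for Mvd, -0.68 for Ebp, -0.57 for Dhcr7, -0.50 for Scap, -0.48 for Cyp51, -0.47 for Nsdhl, -0.42 for Acaca, -0.39 for Fasn and -0.35 for Cers2. It was positive, 0.62, for Elovl6. Of these, Sqle, Cyp51, Nsdhl and Dhcr7 held in all 22 alternative fits. Groups of 3 libraries were too small for a test of outlying samples.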

How the results depend on the processing

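Median log2 fold changes of the 4 roles against day 0 were negative in every fit, from -0.40 to -0.23 for sterol enzymes at day 3 and -0.81 to -0.61 at day 21. For day 21 against day 3 the sterol enzyme median ran from -0.44 to -0.32, while that of fatty acid genes reached 0.01 and that of sterol control and transport 0.02 with 2 libraries left out. The 18 genes lower at day 3 and 21 lower at day 21 stayed within 1.5 times those numbers under every alternative, with 12 to 22 and 15 to 30 when 1 library was left out. Genes higher at day 3 (1 as reported) numbered 2 with DESeq2, log2(FPKM + 1), log2(FPKM + 0.1) and the gene-length trend removed, 3 with a filter of 5 FPKM, sample weights or 2 libraries left out, 4 with only the 2 groups fitted, and 0 with TPM or no filter. Higher at day 21 (1) became 0 with no filter and with only the 2 groups. For day 21 against day 3, genes higher (1) numbered 2 with log2(FPKM + 1), log2(FPKM + 0.1), quantile scaling, the 5 FPKM filter and the length trend removed, and 4 with sample weights or 2 libraries left out; genes lower (10) numbered 4 with only the 2 groups fitted, and 20 with sample weights or 2 libraries left out. With each library left out in turn, genes higher were 0 to 3 at day 3, 0 to 1 at day 21 and 0 to 4 for day 21 against day 3, and genes lower in the last were 5 to 19. The replicate block, which no source ties to shared animals, gave 0 higher and 15 lower at day 3, 0 and 17 at day 21, and 1 and 8 for day 21 against day 3. Among genes called in at least 1 fit of a comparison, signs turned for 2, neither called there in the main fit. Sign changes of genes called in no fit of a comparison were not counted. Cers2 at day 21, at -0.09, was 0.037 with log2(FPKM + 1), 0.038 with log2(FPKM + 0.1), 0.054 with quantile scaling and 0.059 with the 5 FPKM filter. Elovl5 for day 21 against day 3, at 0.04, ranged from -0.026 without day 21 replicate 1 to 0.15 without day 21 replicate 2, and was -0.023 without day 21 replicate 3. The median of sterol enzymes at day 21, -0.76, moved to -0.61 with log2(FPKM + 1) and -0.62 with quantile scaling, and that of sterol control and transport, -0.88, to -0.63 with log2(FPKM + 1), -0.67 with sample weights and -0.61 with 2 libraries left out. The cause was not tested.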
